A study of Saccharomyces cerevisiae with 16 samples.

Results

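The nuclear-encoded respiratory chain and ATP synthase of budding yeast were followed in 16 libraries of ribosome footprints and mRNA. The set was chosen by open reading frame name, with earlier results of these data known, and held 37 genes of 5574 listed features. It comprised 4 subunits of complex II, the NADH dehydrogenase NDI1, 9 genes of complex III, the cytochrome c gene CYC1, 9 genes of complex IV and 13 genes of ATP synthase. The strains were the haploid laboratory strain BY4741 (wild type) and deletions in it of CAN1, RPL22A or TOR1. CAN1 is the plasma membrane arginine permease. RPL22A encodes a large-subunit ribosomal protein, and the cells keep its paralog RPL22B. TOR1 encodes a kinase subunit of TORC1, a complex that couples nutrients to growth. Each strain was grown in rich glucose medium (YPD) in 500 ml cultures to an optical density of 0.5. Wild type and can1 have 3 footprint and 2 mRNA libraries each, and rpl22a and tor1 have 2 footprint libraries and 1 of mRNA each. Whether replicates were grown separately, and from how many clones of a deletion, is not stated in the labels, so p-values measure the spread between these libraries, which may be technical. In mRNA tests the spread is almost wholly a trend pooled over all features, hardly that of the gene itself. The median degrees of freedom there were 10562, against 11.2 in footprints.

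The respiratory chain passes electrons from NADH and succinate to oxygen and pumps protons across the mitochondrial inner membrane, and ATP synthase uses the returning protons to make ATP. Budding yeast has no proton-pumping complex I; NDI1, a single protein, takes its place at the matrix side. In glucose medium yeast ferments, and transcription of respiratory genes is held down by glucose repression; release from it works largely through the Hap2/3/4/5 activator, which binds CCAAT sequences. A few core subunits of complexes III and IV and of ATP synthase are made inside mitochondria, whereas the 37 genes followed here are translated by cytosolic ribosomes.

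Library totals, worked out from the spacing of low RPKM values, lay between 2523445 and 8697633 reads for footprints and between 7645935 and 26588850 for mRNA. Each deleted gene was near absent from its own strain: CAN1 had 1 to 2 footprint reads in can1 against 208 to 921 elsewhere, TOR1 1 to 2 against 109 to 291, and RPL22A 5 to 17 against 1883 to 7862. The library of rpl22a footprint replicate 2 stood apart, with 76.4% of its reads in listed features against 80.6 to 81.7% in the other footprint libraries, so counts are also given without it. All 37 genes were listed singly and passed the filter on low values, with 11 to 5296 footprint reads and 26 to 5997 mRNA reads per gene and library. Levels are RPKM, reads per kilobase of listed length divided by library depth, after scaling between libraries. Fold changes are those of log2(RPKM + 1), so low genes change by more than the value given. Calls are at an adjusted p under 0.05 (limma with Benjamini-Hochberg adjustment over all features tested), ± after a fold change is its standard error, and ± after a level is the standard deviation.

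In wild type the 37 genes were occupied at levels that spread over more than an order of magnitude, and subunits of 1 complex did not share a common level. The catalytic subunits of ATP synthase stood highest. ATP1, the alpha subunit (YBL099W, chromosome II, 37053 to 38690), had 416, 487 and 410.0 footprint RPKM in the 3 libraries, and ATP2, the beta subunit (YJR121W, chromosome X, 647607 to 649142), had 348, 373 and 355. ATP2 was thus read at 0.837, 0.765 and 0.866 of the level of ATP1. The next ATP synthase gene after them was ATP3, at 196 ± 33.6 (SD, n = 3). The lowest was ATP20, subunit g of the dimer interface (YPR020W, chromosome XVI, 599870 to 600217), at 102 ± 6.92 (SD, n = 3), and the median of the 13 genes was 178. NDI1 (YML120C, chromosome XIII, 28266 to 29807) was the lowest of all 37, with 12.6, 10.9 and 14.6 RPKM.

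Within complex II the flavoprotein SDH1 (YKL148C, chromosome XI, 169207 to 171129) stood at 17.3 ± 1.43 and SDH3, a membrane anchor (YKL141W, chromosome XI, 179667 to 180263), at 90.2 ± 9.73, a 5.22-fold span. In complex III the span was 5.51-fold, from CYT1, cytochrome c1 (YOR065W, chromosome XV, 447439 to 448368), at 32.2 ± 4.4 to QCR8, a small subunit (YJL166W, chromosome X, 106434 to 106718), at 177 ± 31.0. In complex IV it was 8.27-fold, from the hypoxic isoform COX5B (YIL111W, chromosome IX, 155222 to 155765) at 25.4 ± 7.0 to COX9, a small membrane subunit (YDL067C, chromosome IV, 334217 to 334396), at 209.7 ± 38.6. That span rests on COX5B, an alternative to COX5A. The lowest of the other complex IV genes was COX7, at 121 ± 20.4. CYC1 (YJR048W, chromosome X, 526335 to 526664) had 162, 166 and 115 RPKM. In mRNA the highest of the 37 genes was ATP5, the stator protein that joins the peripheral stalk to the catalytic head (YDR298C, chromosome IV, 1058176 to 1058814), at 304 ± 86.9 (n = 2), and the lowest was again NDI1 at 5.74 ± 0.436.

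**Figure D1:**
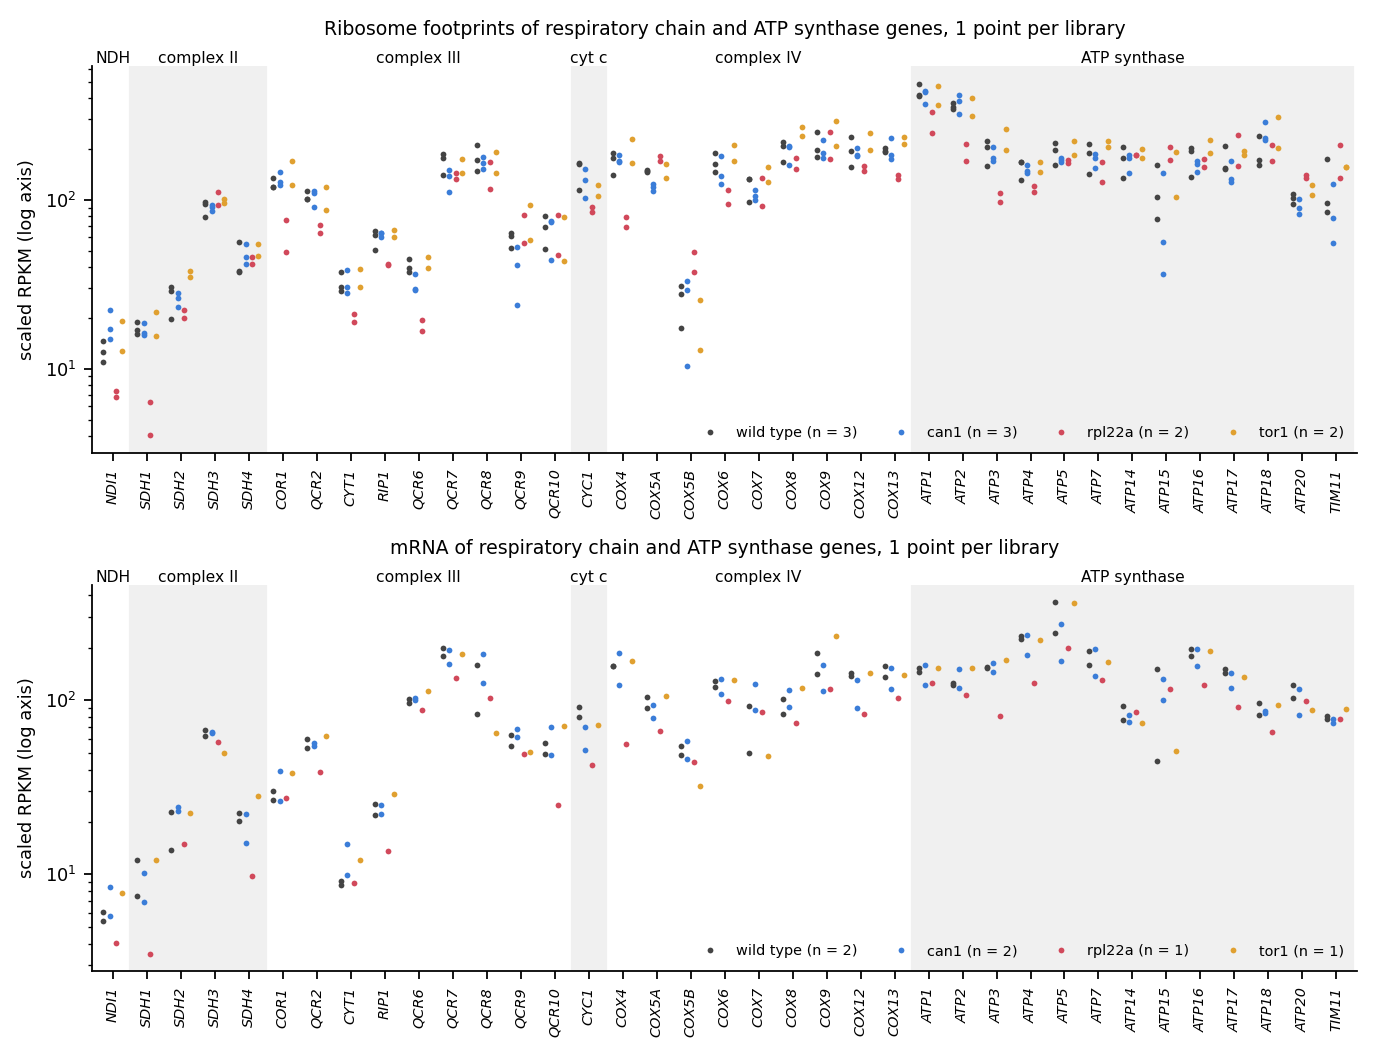
Scaled RPKM of the 37 genes in every footprint library (top) and mRNA library (bottom), on log axes, grouped by complex (NDH, NADH dehydrogenase; cyt c, cytochrome c) and coloured by strain; each point is 1 library. NDI1 and SDH1 lie lowest and ATP1 and ATP2 highest among footprints, and the rpl22a points of SDH1, COX4, QCR6 and ATP2 lie below those of the other strains.

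Together the 37 genes made up between 0.602 and 0.680% of the summed footprint RPKM of the 3 wild-type libraries and 0.412 and 0.557% of the summed mRNA RPKM of the 2. Footprint shares were 0.643, 0.645 and 0.624% in can1 and 0.562 and 0.581% in rpl22a, so both rpl22a libraries lay below every wild-type and can1 library. The tor1 shares were 0.759 and 0.654%, and the 2 libraries differ by more than the 3 wild-type libraries do. In mRNA the shares were 0.565 and 0.569% for can1, with 0.475% for rpl22a and 0.454% for tor1 between the wild-type values. Such a share does not depend on the scaling between libraries. As a sum of scaled mRNA RPKM, rpl22a stood lower, at 2780, against 3726 and 3926 in wild type. The sums were 4014 and 3307 in can1 and 3889 in tor1. The rpl22a footprint mean was 0.892 of that of wild type as a share of RPKM and 0.836 as a sum of scaled RPKM. It was 0.817 as a share of reads, in which long genes weigh more. No test was made of these sums.

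The isoform pair COX5A and COX5B encodes alternative versions of the same complex IV subunit, the first used in aerobic and the second in hypoxic cells. COX5B stood at 18.6, 11.8 and 21.1% of the footprint level of COX5A (YNL052W, chromosome XIV, 531725 to 532186) in the 3 wild-type libraries, but at 52.7 and 53.9% of its mRNA level. In can1 the footprint shares were 24.5, 8.43 and 29.7% and in tor1 15.6 and 9.60%, which overlap wild type. In rpl22a they were 20.4 and 28.7%, with 66.3% in mRNA. The tor1 mRNA library gave 30.1%, below the 4 wild-type and can1 mRNA libraries, on 100 COX5B reads. Both genes have a near copy in the other, as do SDH1 in YJL045W, SDH3 in SHH3, SDH4 in SHH4 and CYC1 in CYC7; no source used here gives how reads with several matches were assigned, so levels of these genes are uncertain.

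Footprints over mRNA, the usual estimate of translational efficiency, were high for most of the 37 genes in wild type. The median ratio of mean footprint to mean mRNA RPKM was 1.4, against 0.916 over 4897 features tested in both assays and 0.755 over the 691 of them under 500 listed bases. The ratio has no absolute scale, since each assay was scaled on its own, so it is read only against other features. Of the 37 genes, 31 lay above the median of all features, 17 above the upper quartile of 1.47 and 2 below the lower quartile of 0.592. COR1, a core protein of complex III (YBL045C, chromosome II, 134143 to 135516), had the highest ratio at 4.37, above 97.5% of features, and CYT1 followed at 3.60. ATP1 and ATP2 stood at 2.92 and 2.89. At the other end stood QCR6, the acidic subunit of complex III (YFR033C, chromosome VI, 224326 to 224769), at 0.409, with only 11.2% of features below it, and COX5B at 0.492.

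The order within a complex was steep. In complex III the ratios ran from 0.409 for QCR6 to 4.37 for COR1, and in ATP synthase from 0.633 for ATP5 to 2.92 for ATP1. The pairs of wild-type libraries with the same number gave 4.46 and 4.47 for COR1 and 0.410 and 0.367 for QCR6, so that the 2 genes did not overlap. They gave 3.57 and 0.509 for ATP15, the epsilon subunit (YPL271W, chromosome XVI, 30079 to 30267), which has 89 listed bases and whose place in the order is therefore not known. Other lists of genes differed in the same measure. The median ratio was 1.76 for 17 genes of the tricarboxylic acid cycle and related enzymes, not all of them mitochondrial. It was 0.686 for 67 mitochondrial ribosomal proteins, 0.793 for 29 assembly factors of complex IV and 0.551 for 12 of ATP synthase.

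**Figure D2:**
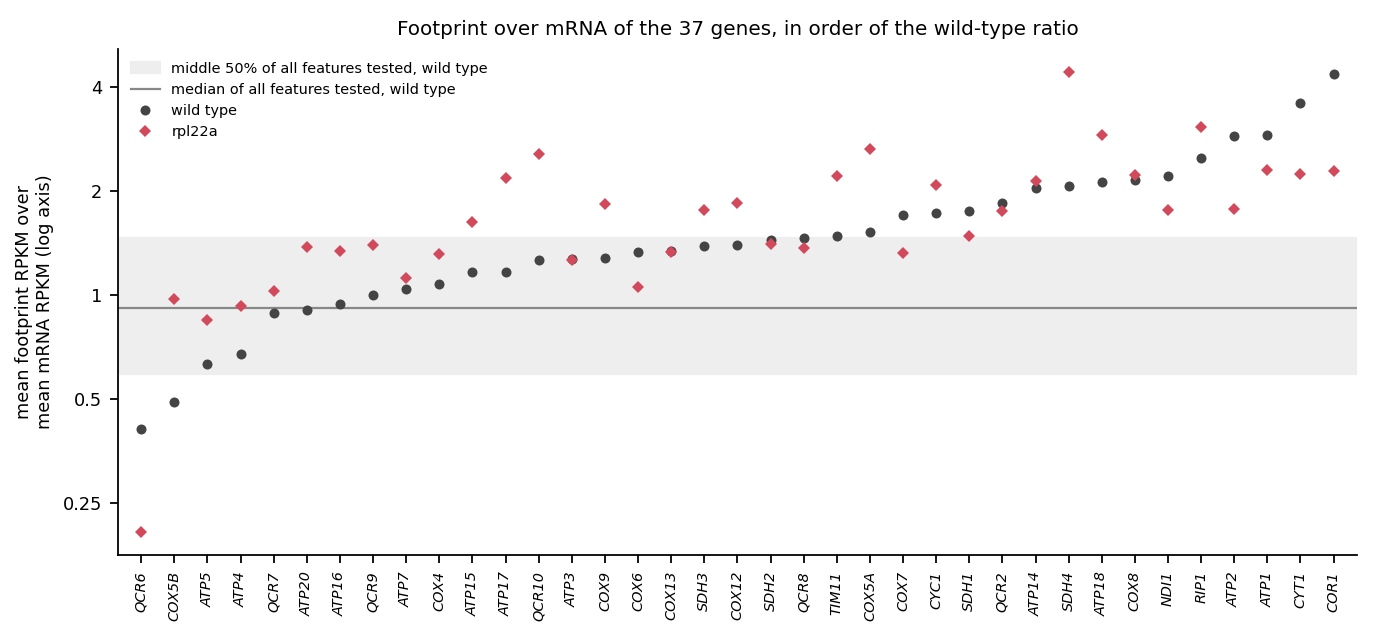
Mean footprint RPKM over mean mRNA RPKM of the 37 genes in wild type (circles; 3 footprint and 2 mRNA libraries) and rpl22a (diamonds; 2 and 1), on a log axis in order of the wild-type ratio, with the median and the middle 50% of 4897 features in wild type. The wild-type ratios run from 0.409 for QCR6 to 4.37 for COR1, and 31 of 37 lie above the median line at 0.916.

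The sequence upstream of the genes was read from the RefSeq R64 genome, 300 bases ending before the start codon, because promoters are what these genes are best known to share. CCAAT, on either strand, was found in 33 of the 37 windows (89.2%), against 41.8% of 6001 coding genes, and the longer form ACCAATNA, whose matches overlap those of CCAAT, in 15 (40.5%) against 5.22%. The windows of COR1, CYT1, COX4 and CYC1 hold no CCAAT, and variant forms or sites further upstream were not sought. The binding sequence of the haem-responsive activator Hap1, searched on both strands, was found in QCR6 alone, which holds 2 matches, and in 0.133% of all windows. CCCCT, the stress response element of Msn2 and Msn4, was found in 15 (40.5%) against 22.2%. A match in a window is only a match of letters. The windows below are those of the gene with the largest footprint change in rpl22a (SDH1), of one that changed in footprints and mRNA and lacks CCAAT (COX4), of the gene with the lowest footprint-to-mRNA ratio (QCR6), of the only gene that rose (ATP20) and of the isoform pair. Capitals mark CCAAT or its complement ATTGG and, in QCR6, the Hap1 sequence on either strand. The SDH1 window is chrXI:171130-171429 (minus strand), COX4 chrVII:150172-150471 (minus), QCR6 chrVI:224770-225069 (minus), ATP20 chrXVI:599570-599869 (plus), COX5A chrXIV:531425-531724 (plus) and COX5B chrIX:154922-155221 (plus).
SDH1: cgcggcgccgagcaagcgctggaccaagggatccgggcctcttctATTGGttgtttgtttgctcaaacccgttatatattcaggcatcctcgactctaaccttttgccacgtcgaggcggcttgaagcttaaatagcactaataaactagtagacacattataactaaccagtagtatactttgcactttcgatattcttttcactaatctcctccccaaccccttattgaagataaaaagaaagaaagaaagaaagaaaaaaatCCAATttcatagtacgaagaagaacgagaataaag
COX4: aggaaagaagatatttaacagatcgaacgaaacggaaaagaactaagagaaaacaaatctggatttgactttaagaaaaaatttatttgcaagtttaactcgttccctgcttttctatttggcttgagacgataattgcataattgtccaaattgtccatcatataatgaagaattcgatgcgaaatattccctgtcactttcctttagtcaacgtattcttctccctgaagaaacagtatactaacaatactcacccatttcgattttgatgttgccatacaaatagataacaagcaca
QCR6: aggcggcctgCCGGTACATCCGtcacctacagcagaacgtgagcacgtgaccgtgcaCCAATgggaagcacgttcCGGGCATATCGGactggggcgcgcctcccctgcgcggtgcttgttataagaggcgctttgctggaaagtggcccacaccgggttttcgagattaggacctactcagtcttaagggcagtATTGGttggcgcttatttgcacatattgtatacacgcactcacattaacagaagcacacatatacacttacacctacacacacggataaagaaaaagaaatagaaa
ATP20: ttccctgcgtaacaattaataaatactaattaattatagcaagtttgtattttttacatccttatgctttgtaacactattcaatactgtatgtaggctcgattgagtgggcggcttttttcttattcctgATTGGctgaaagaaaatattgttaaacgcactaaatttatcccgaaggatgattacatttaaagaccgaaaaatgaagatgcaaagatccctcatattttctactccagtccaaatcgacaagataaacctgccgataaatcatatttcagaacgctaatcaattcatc
COX5A: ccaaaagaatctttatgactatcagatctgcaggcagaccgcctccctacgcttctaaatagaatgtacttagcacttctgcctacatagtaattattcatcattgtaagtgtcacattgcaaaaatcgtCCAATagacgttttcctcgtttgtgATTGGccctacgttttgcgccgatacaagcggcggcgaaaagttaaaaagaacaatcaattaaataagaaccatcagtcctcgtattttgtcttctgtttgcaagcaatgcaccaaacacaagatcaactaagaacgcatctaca
COX5B: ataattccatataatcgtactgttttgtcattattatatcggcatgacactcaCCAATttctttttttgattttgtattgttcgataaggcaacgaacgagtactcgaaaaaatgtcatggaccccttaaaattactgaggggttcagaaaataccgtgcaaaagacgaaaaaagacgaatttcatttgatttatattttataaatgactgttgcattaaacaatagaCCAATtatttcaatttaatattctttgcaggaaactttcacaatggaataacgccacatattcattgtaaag

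TGTANATA, the sequence bound by the RNA-binding protein Puf3, was sought on the coding strand in the 200 bases after the stop codon. It was found in 5 of 37 genes (13.5%), close to the 14.1% of all coding genes, but in 65 of 67 mitochondrial ribosomal protein genes (97.0%), 26 of 29 complex IV assembly factors (89.7%) and 8 of 12 ATP synthase assembly factors (66.7%). Of 20 genes of the tricarboxylic acid cycle and related enzymes 1 holds it (5.0%). No test was made of these shares. The 5 genes are COX8, ATP1, ATP18, TIM11 and SDH1. Of these 5, ATP1 and SDH1 were called lower in rpl22a footprints. COX8, ATP18 and TIM11 were not called there, at −0.26 ± 0.15, 0.01 ± 0.21 and 0.59 ± 0.36. A link between the sequence and the footprint change was not tested. The matches in ATP1 and SDH1 start 50 and 99 bases after the stop codon and are shown in capitals.
ATP1: aaaagaaaTGTAAATAtagaaatt
SDH1: cactaattTGTATATAtacctatt

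The deletion of RPL22A was compared with wild type to ask how ribosome occupancy of the respiratory genes stood when this ribosomal protein was missing. In rpl22a footprints 15 of the 37 genes fell and 1 rose, 43.2% of them, where 18.9% of all 4900 features tested were called (10.1% lower and 8.82% higher). Without rpl22a replicate 2 the number called was 4 (327 of all features, in place of 928), without rpl22a replicate 1 it was 8, without wild-type replicate 2 it was 9, and with no scaling or with the replicate block it was 10. Except for the first, these counts stand without the number over all features, so a general loss of calls is not told apart. The median log2 fold change of the 37 was −0.29, against 0.01 for all features, and 25 of 37 were below 0. The genes that fell come from each of the complexes: SDH1 of complex II, NDI1, COR1, QCR2, CYT1, RIP1 and QCR6 of complex III, CYC1, COX4, COX6 and COX13 of complex IV, and ATP1, ATP2, ATP3 and ATP4 of ATP synthase. Both rpl22a libraries lay below all 3 wild-type libraries for 15 of the 37 genes, and for 25.0% of all features. In bulk samples fewer cells with a transcript and less RNA per cell cannot be told apart.

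SDH1, which carries the flavin that oxidises succinate, showed the largest fall. It had 18.8, 17.0 and 16 footprint RPKM in wild type and 6.34 and 4.04 in rpl22a, a log2 fold change of −1.59 ± 0.19 (n = 2 and 3, adjusted p = 0.000298). The call held in all 11 alternative settings. The other 3 subunits of complex II did not pass. SDH2, the iron-sulfur protein, stood at −0.29 ± 0.18, and the membrane anchors SDH3 and SDH4 at 0.18 ± 0.12 and 0.01 ± 0.18. In rpl22a the span between SDH3 (93.6 and 111 RPKM) and SDH1 was thus wider than in any wild-type library. NDI1 went from 12.6, 10.9 and 14.6 to 6.83 and 7.37 RPKM, a change of −0.75 ± 0.21 (adjusted p = 0.0277). That call was lost in 5 of 11 alternatives, among them without either rpl22a library or without wild-type replicate 3, with an adjusted p of up to 0.134.

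In complex III the core proteins, both redox proteins and QCR6 fell, and the other small subunits did not pass. COR1 had 119, 135 and 119.6 RPKM in wild type and 76.3 and 49.0 in rpl22a, a change of −1.01 ± 0.19 (adjusted p = 0.00410). QCR6 went from 39.8, 37.3 and 44.8 to 19.5 and 16.6 RPKM, a change of −1.13 ± 0.14 (adjusted p = 0.000494). The second core protein, QCR2 (YPR191W, chromosome XVI, 919381 to 920487), changed by −0.63 ± 0.15 (adjusted p = 0.0142), CYT1 by −0.65 ± 0.17 (adjusted p = 0.0231) and the Rieske iron-sulfur protein RIP1 (YEL024W, chromosome V, 107260 to 107907) by −0.50 ± 0.13 (adjusted p = 0.0212). QCR7, QCR8, QCR9 and QCR10 lay between −0.33 and 0.19. The call of QCR6 held in all 11 alternatives, and that of COR1 in 10, with an adjusted p of 0.0558 without rpl22a replicate 2. QCR2 lost its call in 3, CYT1 in 4 and RIP1 in 6 alternatives, in each case without rpl22a replicate 2 and without wild-type replicate 2 among others, with an adjusted p of up to 0.124, 0.160 and 0.1185.

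Cytochrome c, the soluble carrier between complexes III and IV, fell with them: CYC1 had 85.1 and 91.3 RPKM in rpl22a against 162, 166 and 115, a change of −0.72 ± 0.19 (adjusted p = 0.0230). The call was lost without either rpl22a library and without wild-type replicate 1 or 2, with an adjusted p of up to 0.119. In complex IV, COX4, the zinc-binding structural subunit (YGL187C, chromosome VII, 149704 to 150171), had 79.2 and 68.9 RPKM against 178, 189.7 and 141, a change of −1.18 ± 0.16 (adjusted p = 0.000638) that held in all 11 alternatives. COX6 (YHR051W, chromosome VIII, 209705 to 210151) changed by −0.66 ± 0.18 (adjusted p = 0.0240) and COX13 (YGL191W, chromosome VII, 144808 to 145197), a small subunit at the edge of the enzyme, by −0.52 ± 0.13 (adjusted p = 0.0154). These 2 calls were lost in 6 and 5 alternatives, among them without either rpl22a library, with an adjusted p of up to 0.159 and 0.0906. COX5A lay above wild type in both rpl22a libraries (183 and 171 RPKM against 146 to 150.2), but its change of 0.26 ± 0.11 did not pass (adjusted p = 0.123). COX5B, at 0.77 ± 0.46, did not pass either. COX7, COX8, COX9 and COX12 lay between −0.34 and 0.02.

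In ATP synthase ATP1, ATP2 and ATP3 fell, which are the 3 longest of its genes as listed (1538, 1436 and 836 bases). Most of its other subunits did not pass, among them ATP16 at −0.09 ± 0.16 and ATP15, the epsilon subunit, at 0.78 ± 0.54. ATP2 had 213 and 169.7 RPKM in rpl22a against 348, 373 and 355 in wild type, a change of −0.91 ± 0.15 (adjusted p = 0.00187). ATP3, the gamma subunit that turns inside the catalytic head (YBR039W, chromosome II, 315575 to 316510), had 109.9 and 96.8 against 224, 205 and 159, a change of −0.91 ± 0.17 (adjusted p = 0.00407). ATP1 had 330.0 and 249 against 416, 487 and 410.0, a change of −0.60 ± 0.16 (adjusted p = 0.0209). The ratio of ATP2 to ATP1 was 0.646 and 0.682 in rpl22a, below the 3 wild-type values (0.765 to 0.866), the 3 of can1 (0.868 to 0.954) and the 2 of tor1 (0.847 and 0.855).

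ATP4, the b subunit of the stator stalk (YPL078C, chromosome XVI, 408010 to 408744), changed by −0.41 ± 0.13 (adjusted p = 0.0457). ATP20 was the only 1 of the 37 to rise, with 135 and 139.6 RPKM against 103, 109 and 94.8, a change of 0.42 ± 0.12 (adjusted p = 0.0300). The call of ATP2 held in all 11 alternatives and that of ATP3 in 10, with an adjusted p of 0.0554 without rpl22a replicate 2. ATP1 lost its call in 4, ATP20 in 6 and ATP4 in 7 alternatives, in each case without rpl22a replicate 2, with an adjusted p of up to 0.209, 0.687 and 0.2335; that of ATP20 was with the length trend removed. The other 8 genes of ATP synthase lay between −0.31 for ATP7 and 0.78 for ATP15, and none passed. TIM11, subunit e, which sits beside ATP20 at the dimer interface, stood at 0.59 ± 0.36.

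**Figure D3:**
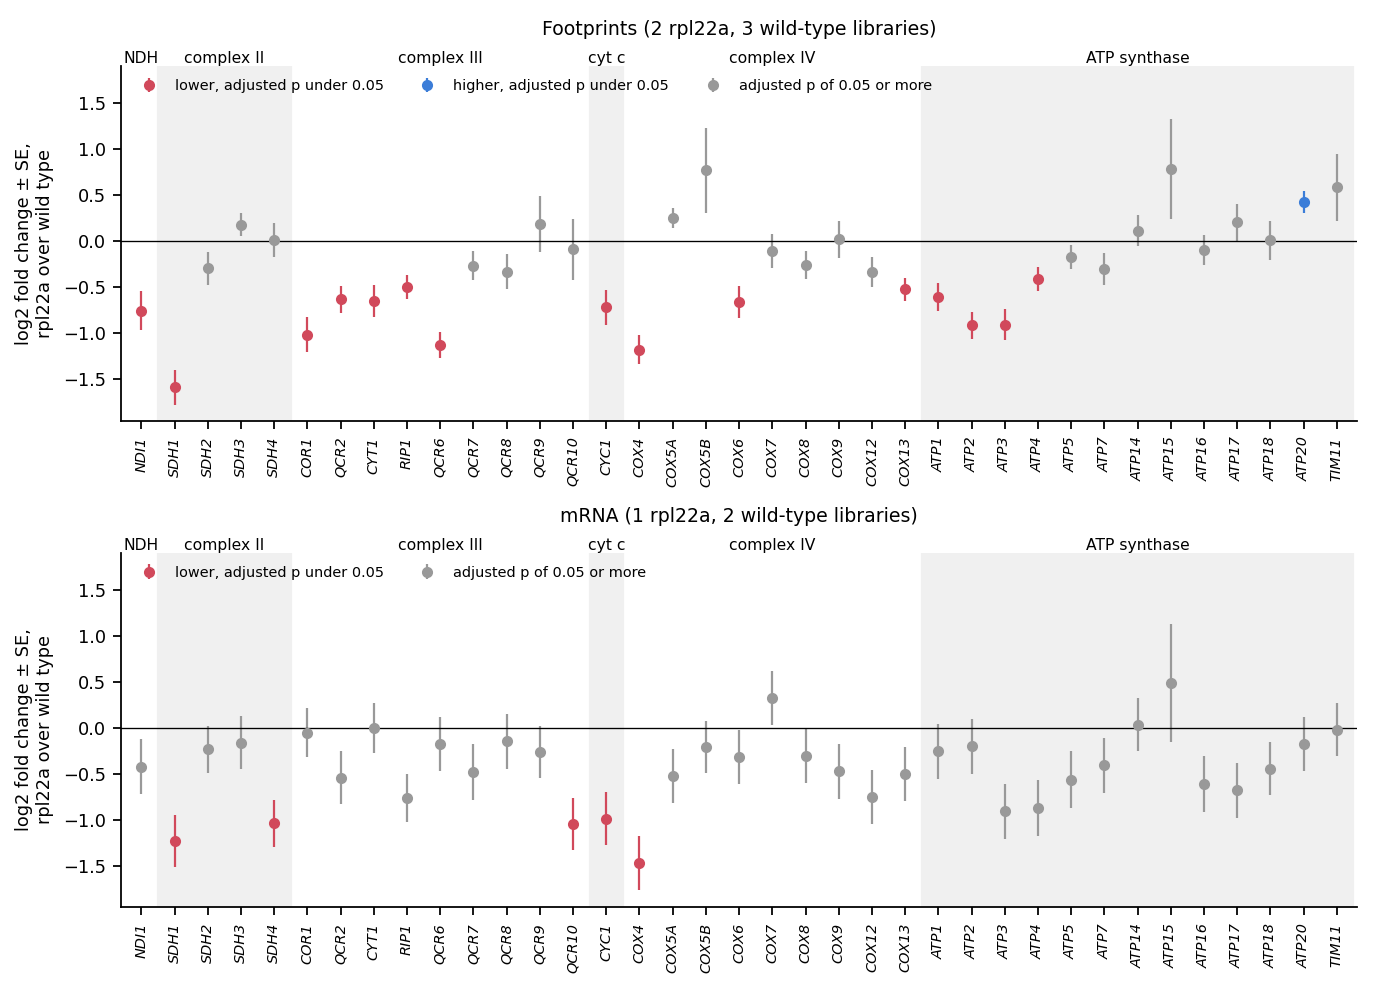
Log2 fold change of rpl22a over wild type with its standard error for each of the 37 genes, in footprints (top) and mRNA (bottom), grouped by complex; red and blue mark an adjusted p under 0.05. In footprints 15 genes lie below 0 in red and ATP20 above it in blue; in mRNA SDH1, SDH4, QCR10, CYC1 and COX4 are red.

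The fold change in rpl22a footprints moved with gene length, in all features and in the 37 genes. Across all 4900 features the Spearman correlation of fold change with listed length was −0.42, and across the 37 genes it was −0.58 (a description over genes of the same libraries). Listed lengths of the 37 genes run from 80 to 1823 bases with a median of 356, against 1136 for all features. Among the 10 genes of 600 bases or more 9 fell, with a median of −0.70, where features of that length had a median of −0.05 and 11.7% fell. Of the 11 genes between 300 and 600 bases 4 fell, with a median of −0.17 against 0.28, and 3.49% of such features fell. Of the 16 genes under 300 bases 2 fell and 1 rose, with a median of −0.04 against 0.39, where 4.21% of features fell and 17.9% rose. In the 3 classes 10 of 10, 10 of 11 and 13 of 16 genes lay below the median of features of like length. After a lowess trend on listed length was subtracted from each library, 21 of the 37 genes were lower and 0 higher, with a median of −0.58, and 17.2% of all features were called. The part of length in the result was not otherwise tested.

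**Figure D4:**
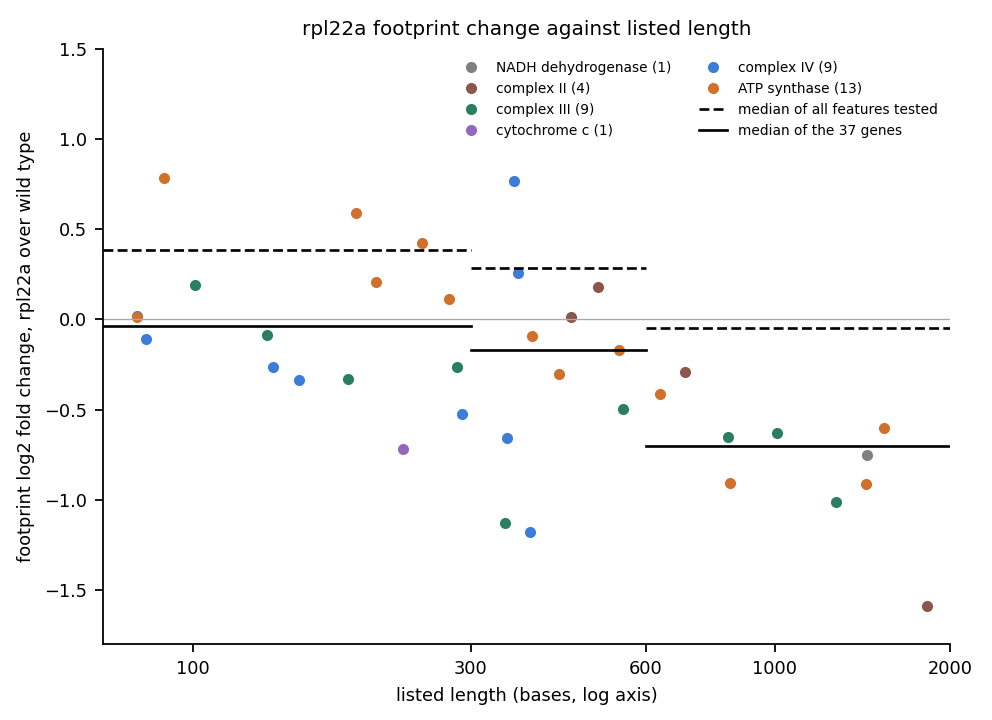
Footprint log2 fold change of rpl22a over wild type against listed length (log axis) for the 37 genes, coloured by complex, with medians of the 37 genes (solid) and of all features tested (dashed) under 300, from 300 to 600 and from 600 bases. The solid lines lie at −0.04, −0.17 and −0.70 and the dashed lines at 0.39, 0.28 and −0.05.

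In the single rpl22a mRNA library 5 of the 37 genes were lower than in wild type and 0 higher, where 3.56% of 5281 features were called. The median of the 37 genes was −0.42, against 0.02 for all features, and 34 of 37 were below 0. Here too the change moved with listed length, with a Spearman correlation of 0.28 across all features. Under 300 bases the median of the 37 genes was −0.37, against −0.22 for features of like length. From 300 to 600 bases it was −0.53 against −0.10, and from 600 bases −0.34 against 0.05. With the length trend removed the median of the 37 genes was −0.27. COX4 had 56.2 RPKM against 157 and 158 in wild type, a log2 fold change of −1.47 ± 0.30 (n = 1 and 2, adjusted p = 0.000113). SDH1 had 3.5 against 12.1 and 7.54, a change of −1.23 ± 0.28 (adjusted p = 0.00119), and SDH4 (YDR178W, chromosome IV, 817950 to 818495) had 9.83 against 22.4 and 20.2, a change of −1.04 ± 0.26 (adjusted p = 0.00363). QCR10, a small subunit of complex III (YHR001W-A, chromosome VIII, 107826 to 108122), changed by −1.05 ± 0.28 (adjusted p = 0.00994) and CYC1 by −0.99 ± 0.29 (adjusted p = 0.0203). The rpl22a library lay below both wild-type libraries for 29 of the 37 genes, as it did for 36.7% of features. The lone library is assumed to vary like those of the other strains, and the call of COX4 alone held in all 7 alternatives: without wild-type mRNA replicate 1 it was the only gene of the 37 called, and without replicate 2 ATP15 was called higher beside SDH1, SDH4 and COX4. With the length trend removed 1 gene was called, COX4, where 1.31% of features were.

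COX4, SDH1 and CYC1 were thus called lower in both assays. ATP3, ATP4 and RIP1, called in footprints, stood at −0.91 ± 0.30, −0.87 ± 0.30 and −0.76 ± 0.26 in mRNA without passing (adjusted p = 0.0592, 0.0827 and 0.0746). COR1 and CYT1 had mRNA levels of 27.4 and 8.92 RPKM in rpl22a against 28.5 ± 2.48 and 8.94 ± 0.345 in wild type, changes of −0.05 ± 0.27 and −0.00 ± 0.27. The mRNA of QCR6 and ATP2 changed by −0.18 ± 0.29 and −0.20 ± 0.30.

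The difference between the 2 assays was tested as an interaction, and in rpl22a 0 of the 37 genes passed, as did 0.0% of 4897 features (limma); 7 of the 37 had an unadjusted p under 0.05. The median of the 37 was 0.26 and went to −0.25 with the length trend removed, so its direction rests on that choice. The smallest p was that of QCR6, at −0.95 ± 0.24 (unadjusted p = 0.00121, adjusted p = 0.2205), followed by COX5A at 0.78 ± 0.22 and SDH4 at 1.05 ± 0.33 (unadjusted p = 0.00284 and 0.00643, adjusted p = 0.2205 and 0.260). COR1 stood at −0.96 ± 0.34, ATP2 at −0.71 ± 0.27 and ATP17, subunit f of the membrane part, at 0.88 ± 0.32. The footprint-to-mRNA ratio of COR1 went from 4.37 to 2.29 and that of QCR6 from 0.409 to 0.206, while that of SDH4 went from 2.07 to 4.44. With 1 rpl22a mRNA library the median standard error of the 37 genes in this comparison was 0.32, so a change of translational efficiency was not detectable here unless large. In the main interaction fits the libraries were treated as independent, although footprints and mRNA came from the same lysates.

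The other deletions were set beside rpl22a to ask whether they differ from it. Against can1 footprints 12 of the 37 genes were lower in rpl22a and 2 higher, where 23.7% of features were called. Against tor1 14 were lower and 0 higher, where 14.8% were. These comparisons share the rpl22a libraries with the one against wild type. Counts given below with 1 library left out stand without the number over all features, so a general loss of calls is not told apart. SDH1 differed by −1.56 ± 0.19 from can1 and −1.68 ± 0.21 from tor1 (adjusted p = 0.000356 and 0.000556), COX4 by −1.22 ± 0.16 and −1.39 ± 0.17 (adjusted p = 0.000610 and 0.000639), and COR1 by −1.10 ± 0.19 and −1.23 ± 0.20 (adjusted p = 0.00250 and 0.00328). The 2 genes higher than in can1 were COX5A, at 0.58 ± 0.11 (adjusted p = 0.00419), and ATP20, at 0.59 ± 0.12 (adjusted p = 0.00567). Both lost that call with the length trend removed (adjusted p = 0.342 and 0.523). SDH2 and COX8 (YLR395C, chromosome XII, 909729 to 909965) passed against tor1 alone, at −0.77 ± 0.20 and −0.63 ± 0.17 (adjusted p = 0.0248 and 0.0290), and neither call held when any of the 4 libraries was left out (adjusted p up to 0.143 and 0.180). Without rpl22a replicate 2 the number called fell to 6 against can1 and 8 against tor1, and without tor1 replicate 1 to 5 against tor1.

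In can1 footprints 0 of the 37 genes passed (limma), where 0.224% of features were called; 5 of 37 had an unadjusted p under 0.05. Their median was −0.07 with a median standard error of 0.15. The smallest p was that of COX5A, which had 119, 124 and 112 RPKM in can1 against 150.2, 148 and 146, all lower, a change of −0.32 ± 0.10 (unadjusted p = 0.00681, adjusted p = 0.654). QCR6 stood at −0.35 ± 0.13 (29.8, 36.2 and 29.3 RPKM against 39.8, 37.3 and 44.8) and NDI1 at 0.48 ± 0.19 (15.1, 17.3 and 22.4 against 12.6, 10.9 and 14.6), each with can1 and wild-type libraries that did not overlap. With 3.9% of features all lower and 4.53% all higher, 2 and 1 of the 37 genes are close to that background. In can1 mRNA 0 of the 37 passed, with 1.4% of features called and 2 of 37 at an unadjusted p under 0.05. COX7 stood highest at 0.61 ± 0.24 and CYC1 lowest at −0.49 ± 0.23. Without wild-type mRNA replicate 2, 2 genes passed as higher, COX7 and ATP15; both are under 90 bases as listed, and the 2 wild-type mRNA libraries held 50.0 and 92.4 RPKM of COX7 and 44.9 and 151 of ATP15. In the interaction of assay and can1, 0 of the 37 passed where 0.0204% of features did, and 1 had an unadjusted p under 0.05.

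In tor1 footprints 0 of the 37 genes passed (limma), where 0.0408% of features were called; 2 had an unadjusted p under 0.05. Their median was 0.17, against −0.00 for all features, and 29 of 37 were above 0. Without tor1 replicate 1 the median was 0.01 and without replicate 2 it was 0.26, so its size rests on 1 library. SDH2 stood at 0.48 ± 0.18, with 37.9 and 35.1 RPKM against 30.6, 29.0 and 19.7 (unadjusted p = 0.0228, adjusted p = 0.617), and COX8 at 0.36 ± 0.15, with 271 and 239.6 against 220.2, 209 and 169. In tor1 mRNA 0 of the 37 passed, with 0.246% of features called and 2 of 37 at an unadjusted p under 0.05. QCR8 stood at −0.81 ± 0.29 and COX5B at −0.67 ± 0.28, on the single tor1 library. Without wild-type mRNA replicate 1, ATP15 was called lower. The interaction with tor1 gave 0 of the 37 genes and 0.0% of features, with 1 of the 37 at an unadjusted p under 0.05.

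**Figure D5:**
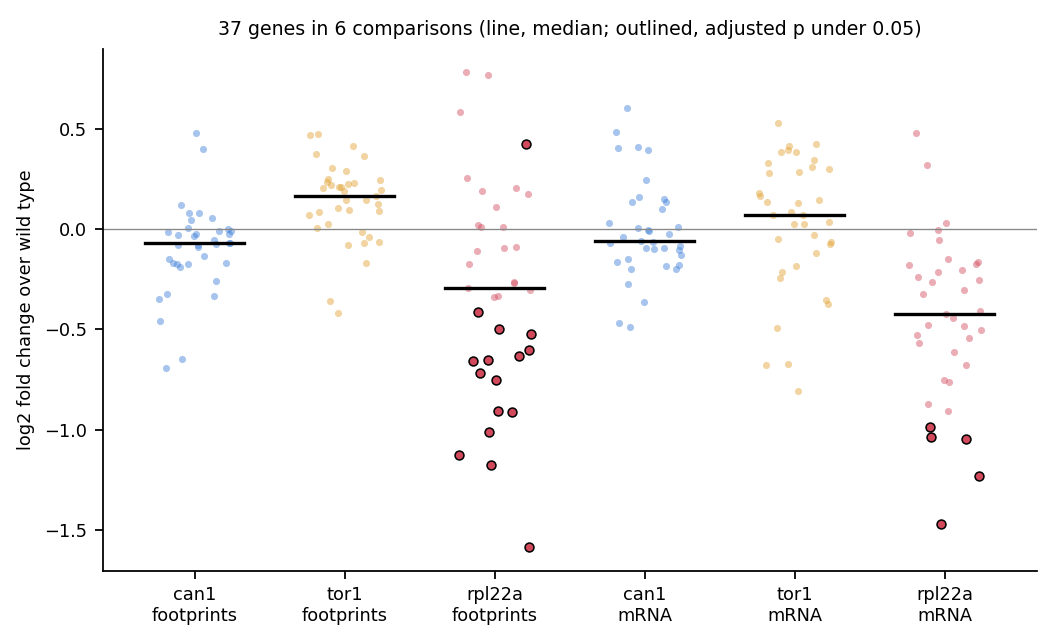
Log2 fold changes of the 37 genes over wild type in 6 comparisons, 1 point per gene, with the median as a line; outlined points have an adjusted p under 0.05. The medians are −0.07, 0.17 and −0.29 in can1, tor1 and rpl22a footprints and −0.06, 0.07 and −0.42 in mRNA, and all outlined points are in the 2 rpl22a columns.

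Other genes of respiration were counted in the same rpl22a footprint comparison, where 18.9% of features were called. Of 17 genes tested of the tricarboxylic acid cycle and related enzymes, 10 fell and 2 rose, with a median of −0.69. That list is wider than the mitochondrial cycle and holds cytosolic enzymes such as MDH2. CIT1, the mitochondrial citrate synthase, had 18.4 mean RPKM in rpl22a against 47.5 in wild type, a change of −1.32 ± 0.15 (adjusted p = 0.000166). KGD1, of the 2-oxoglutarate dehydrogenase, changed by −0.99 ± 0.12, LPD1, the dihydrolipoamide dehydrogenase, by −0.96 ± 0.10, and MDH2, the cytosolic malate dehydrogenase, by −1.91 ± 0.21. Of 10 carriers and other points of electron entry 2 fell: PET9, the main ADP/ATP carrier of the inner membrane, with a change of −0.90 ± 0.11 (adjusted p = 0.000298) and NDE1, the external NADH dehydrogenase, with −0.55 ± 0.17 (adjusted p = 0.0493).

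The genes that build the complexes were counted next. Of 29 assembly factors of complex IV 3 fell and 3 rose, with a median of −0.10; COX20, a chaperone of COX2, rose by 0.91 ± 0.17 (adjusted p = 0.00450). These 29 have a median listed length of 665 bases against 356 for the 37 genes, in a comparison where the fold change moved with length. Of 13 assembly genes of complexes II and III 0 passed, with a median of 0.02. Of 12 for ATP synthase 1 rose, NCA3, with a median of −0.06. Of 67 mitochondrial ribosomal proteins 2 rose and 1 fell, with a median of 0.08, and of 11 genes of coenzyme Q synthesis 1 rose (COQ10) and 1 fell (COQ6). Among 12 regulators of respiratory genes RPO41, the mitochondrial RNA polymerase, fell, with a change of −0.59 ± 0.14 (adjusted p = 0.0156). No test was made of a difference between these lists and the 37 genes.

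Among 6 related subunits, isoforms and regulators tested in footprints, RCF2, a factor of respiratory supercomplexes, rose by 0.59 ± 0.10 (adjusted p = 0.00206), and STF1, which stabilises the inhibited enzyme, fell, with a change of −1.11 ± 0.22 (adjusted p = 0.00585). In rpl22a mRNA, where 3.56% of features were called, 4 of 9 were lower: STF1 (4.72 RPKM against a mean of 16.5), STF2 (11.8 against 38.2), the ATPase inhibitor INH1 (9.79 against 20.7) and ATP19, subunit k (49.0 against 101), with adjusted p = 3.16e-07, 1.57e-06, 0.00539 and 0.0160. Of 12 regulators, ROX1, the repressor of hypoxic genes, was higher in rpl22a mRNA at 1.11 ± 0.30 (adjusted p = 0.00960). In can1 mRNA, where 1.4% of features were called, HAP4, the regulated subunit of the Hap2/3/4/5 activator, was higher at 1.12 ± 0.23 (17.6 against 8.06 mean RPKM, adjusted p = 0.00018), as was STF2 at 1.06 ± 0.23 (80.8 against 38.2, adjusted p = 0.000466). In can1 footprints HAP4 had a mean of 13.4 RPKM against 10.2 and did not pass.

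The subunits that mitochondria make themselves gave few footprint reads. The 7 features of the mitochondrial genome listed singly (COX2, COX3, COB, ATP6, ATP8, OLI1 and VAR1) together held 17 to 42 footprint reads per wild-type library, 6 to 69 per can1 library, 2 and 1 in the rpl22a pair and 10 and 38 in the tor1 pair. Footprints came from the 80S fraction and mRNA from poly(A) selection. In mRNA the same 7 features held 144 and 1069 reads in the wild-type pair and 636 and 426 in the can1 pair, with 1403 for rpl22a and 157 for tor1, most of them from OLI1, COB and VAR1. ATP6 had 27 reads in rpl22a mRNA against 0 and 2 in wild type, and COX2 had 21 against 4 and 9. Both passed the filter on low values only through the rpl22a library, so no call or median is given for the mitochondrial features there. OLI1, the c subunit of the ATP synthase ring, had 33.9 and 119 RPKM before scaling in the 2 wild-type libraries and 165 in rpl22a. The balance between nuclear and mitochondrial subunits was not analysed here.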

How the data were processed

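Ribosome footprints and poly(A) mRNA from the same lysates were sequenced by the authors, aligned with Bowtie 1.1.2 to R64 per the submitters' processing notes, and deposited as RPKM per feature. Listed lengths are the coding length less 100 bases for 36 of the 37 genes (COX4 differs). Because RPKM are not counts, no count test was the main test: reads were recovered from the steps of the values (tolerance 0.05 reads) for library totals and scaling by the trimmed mean of M values; 3 libraries are means of 2 runs, so their reads are approximate. Features whose RPKM equalled 10 or more reads at median depth were tested with limma 3.58.1 (R 4.3.3, statmod 1.5.0; trended, robust) on log2(RPKM + 1), all strains in one fit per assay, after tests on simulated data. Tables were made with Python 3.11.15. Same-numbered wild-type and can1 footprint libraries deviated together (correlations 0.66, 0.24 and 0.43 over 3623 features), but in mRNA the correlation was 0.10. Depth also fell with number in the footprints of both strains, and the labels do not say what a number marks. Whether the numbers pair the samples was not tested, so the main fits hold no block. Depth limits precision most for genes under 100 listed bases. Genes named are all members called in any comparison, the highest and lowest of each complex, COX5A, COX5B, CYC1 and NDI1, and up to 4 of each other list. The members and lists were chosen with earlier results of these data known. Alternatives were no scaling, a pseudocount of 0.1, no filter, removal of the length trend, a replicate block, a fit to 2 strains and leaving out each library.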

Additional observations from a re-analysis of the deposited data

How the results depend on the processing

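No called gene changed direction under any alternative run. In rpl22a against wild-type footprints 16 genes were called; the number was 10 with no scaling (2 higher and 8 lower, the median of all features moving to 0.17), 10 with the replicate block, all lower, and 4 to 13 when 1 library was left out (4 without rpl22a replicate 2, 8 without rpl22a replicate 1, 9 without wild-type replicate 2). Over all features 928 were called, against 506 with the block and 327 without rpl22a replicate 2. The rpl22a and wild-type numbers correlated at −0.34 and −0.12. With 2 rpl22a libraries the deviations from their mean mirror each other, so these values cannot show whether the numbers pair the samples. Against can1 14 genes became 6 to 19, and against tor1 14 became 5 to 11, when 1 library was left out. In rpl22a mRNA 5 genes became 1 with no scaling (median of all features 0.27), with the length trend removed and with only 2 strains, and 1 to 4 with 1 library left out; all features went from 188 to 117, 69 and 58, to 104 with no filter and to 75 without wild-type replicate 1. One library left out gave 0 to 2 genes in can1 mRNA and 0 to 1 in tor1 mRNA. The summed share of rpl22a over wild-type footprints was 0.892, or 0.817 as reads, and 0.866 to 0.920 with 1 library left out. That of tor1 was 1.1, and 1.02 to 1.19. The block changed no call of the 37 genes in can1 or tor1; over all features can1 went from 11 to 17 in footprints and from 74 to 135 in mRNA, which fell to 29 with no filter and 6 with the length trend removed. The leave-out of summed shares was chosen after seeing the data. Where a count of the 37 genes stands without the number over all features, a general gain or loss of calls is not told apart. The cause of these shifts was not tested. Genes under 100 listed bases had as few as 11 footprint reads.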
